A study of Mus musculus with 3 samples.

Results

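The receptors described here regulate how strongly a T cell responds once its antigen receptor is engaged. They are 9 genes listed by name: Cd28, Icos, Tnfrsf4 and Tnfrsf9, which encode costimulatory receptors, and Pdcd1, Btla, Tigit, Lag3 and Havcr2, which encode inhibitory or checkpoint receptors. A value in every library could be formed for 8 of the 9, out of 36835 genes of the whole table. Icos had no single row filled in all libraries and is described from its separate rows.

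Sorted populations (3 in all) were sequenced from BALB/C mice carrying Renca tumors, a mouse renal cancer cell line (in the study a Ch+ L+ line), inoculated into the kidney. Type-2 macrophages (M2) and type-1 macrophages (M1) were sorted from 30 pooled tumors and CD4 T cells (CD4) from 4 pooled spleens, although a second label field names tumors as the source of the CD4 T cells. The labels give both day 14 and day 16 for the harvest. The labels name no transgene and no treatment of the mice. Sorting gates were high for the macrophage marker F4/80 and intermediate for CD11b in M2, the reverse in M1, and positive for TCRβ and CD4 in the CD4 T cells. Each population gave 1 library, so that no difference between libraries has a replicate check and no p-value is given.

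A naive T cell needs a signal through CD28, which binds CD80 and CD86 on antigen presenting cells, in addition to the signal of its antigen receptor. ICOS and the TNF receptor family members OX40 (Tnfrsf4) and 4-1BB (Tnfrsf9) appear or increase on the surface after activation and sustain the response. PD-1 (Pdcd1), BTLA, TIGIT, LAG-3 and TIM-3 (Havcr2) restrain it and are known as targets or candidate targets of tumor immunotherapy, while TIM-3 is also known on macrophages and dendritic cells.

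Cell type markers went against the labels of the M2 and CD4 libraries, which bears on every result. Levels are in FPKM, a count of sequenced fragments divided by transcript length and by library size. The 11 T cell markers summed to 1759 FPKM in the M2-labelled library, against 17.0 in the CD4-labelled one and 6.01 in the M1-labelled one, and all 11 were highest in the M2-labelled library. With all rows of each gene summed they came to 12799, 23.2 and 9.90 FPKM, again with all 11 highest in the M2-labelled library. Most of the sum of 12799 was from Cd5, at 11066.5 FPKM over all rows and 81.3 in the row kept. Cd247, a chain of the CD3 complex, was at 0 in both other libraries in the rows kept, and at 2.74 (CD4) and 3.14 (M1) FPKM over all rows. The 10 macrophage markers summed to 620 FPKM in the M2-labelled library, 12597 in the CD4-labelled one and 8100 in the M1-labelled one. B cell markers (5 genes) summed to 52.9, 0.501 and 0.422 FPKM in the order M2, CD4, M1, and kidney epithelium markers (5 genes) to 183, 86.8 and 68.7. Neutrophil markers (5 genes) summed to 195, 10.4 and 47.3 FPKM in the rows kept but to 919, 346 and 416 over all rows, mostly from Elane. CD8 and NK cell markers (8 genes) summed to 42.9, 0.665 and 4.47 FPKM, dendritic cell markers (6 genes) to 130, 3.52 and 32.5, and regulatory T cell markers (5 genes) to 57.8, 0.606 and 0.628. Most of the dendritic cell sum was from Ccr7 in the M2-labelled library, at 122 FPKM, and from Cd209a in the M1-labelled one, at 23.7. Among the regulatory T cell markers, Foxp3 was at 24.9 FPKM in the M2-labelled library and listed at 0 in both others. For M2 and CD4 this is the reverse of the paper's account of its RNA sequencing. The paper reports the known Foxp3 variants in CD4 T cells and did not find them significantly in either macrophage population. It also reports a further variant, at a low level, in both macrophage populations but not in CD4 T cells. The libraries are named by their labels, and each direction rests on those labels. Whether the M2 and CD4 columns were exchanged could not be settled from the sources used here, and if they were, every difference between M2 and CD4 would keep its size and turn its sign, and the values given for M2 would belong to CD4 and the reverse. In sorted bulk RNA, fewer cells of a type and less RNA per cell cannot be told apart. Depth, in units of 1000000 fragments, was estimated at 59.7 for the M2-labelled library, 73.5 for CD4 and 61.4 for M1.

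Most of the receptors were high in the M2-labelled library and low in the others, and 3 were not. Cd28, Tnfrsf4, Pdcd1, Btla and Tigit were between 10.1 and 47.8 FPKM in the M2-labelled library and below 1 FPKM in both others. Tnfrsf9 was at similar levels in the M2- and M1-labelled libraries, Lag3 in those labelled M2 and CD4, and Havcr2 was lowest in the M2-labelled library. A gene was counted as different where log2 of the ratio of FPKM + 1 was at least 1 in size. Because 1 is added, folds of weakly expressed genes come out too small on this scale. In the M2-labelled library compared with the CD4-labelled one, 6 of 8 receptors were at least 2-fold higher, where 5.85% of all 36835 genes were, and 1 was at least 2-fold lower, where 5.17% of all genes were. Compared with the M1-labelled one, 6 were higher (5.73% of all genes) and 1 lower (4.90%). Between the CD4- and M1-labelled libraries, 1 was higher in CD4 (2.20% of all genes) and 2 were lower (2.28%). When genes under 1 FPKM in both libraries were left aside, these shares were 17.3% and 15.3% for M2 against CD4, 17.0% and 14.5% for M2 against M1, and 6.98% and 7.24% for CD4 against M1. The median log2 difference of the 8 receptors was 3.40 for M2 against CD4, 3.31 for M2 against M1 and -0.15 for CD4 against M1. Over all genes each of these medians was 0. Of the 9 genes, 0 overlapped another annotated gene on either strand.

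**Figure D1:**
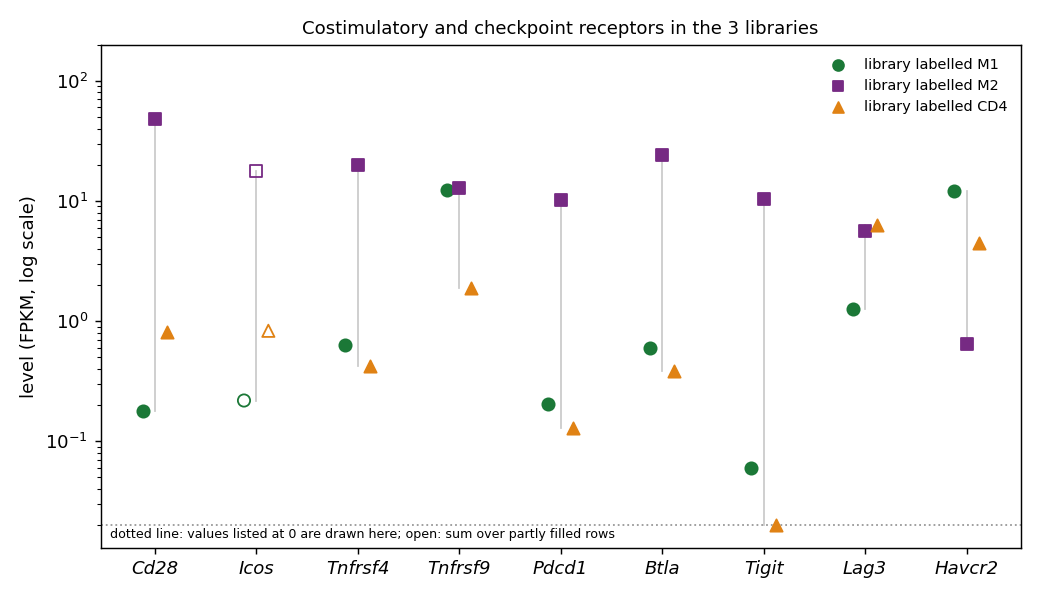
Level of each receptor gene (x axis) in FPKM on a log scale (y axis) in the libraries labelled M1 (circles), M2 (squares) and CD4 (triangles), 1 point per library. Cd28, Tnfrsf4, Pdcd1, Btla and Tigit stand at 10.1 to 47.8 FPKM in the M2-labelled library and below 1 FPKM in the others, while Havcr2 is lowest there at 0.650 FPKM; Tigit in the CD4-labelled library is listed at 0, and Icos (open symbols) is a sum over rows that are each empty in 1 or 2 libraries.

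Cd28 (ENSMUSG00000026012) lies on the forward strand of chromosome 1 from 60773644 to 60830203 in build NCBIM37, also called MM9. Its protein binds CD80 and CD86 and signals through phosphoinositide 3-kinase. Cd28 was at 47.8 FPKM in the M2-labelled library, 0.809 in the CD4-labelled one and 0.178 in the M1-labelled one. It was the highest of the 8 receptors in the M2-labelled library, above 94.2% of the genes with a level above 0 there, but above 38.4% and 27.2% in the CD4- and M1-labelled libraries. The ratio was 59.1 for M2 over CD4 and 268 for M2 over M1, and the log2 differences were 4.75 and 5.37. The CD4- and M1-labelled libraries also stood apart, with a ratio of 4.54, although their log2 difference of 0.62 was below the 2-fold limit. At the estimated depths, these levels are worth about 12419, 259 and 47.6 fragments, so that the difference between the libraries of low level does not rest on single fragments. Of the 3 annotated transcripts only Cd28-001, of 4347 bases in 4 exons, had a level above 0, and Cd28-002 and Cd28-003 were listed at 0 in all 3 libraries.

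Icos lies on chromosome 1 from 61034771 to 61057164, on the same strand as Cd28. Its protein is a member of the CD28 family that is induced on activated T cells and binds ICOS ligand. The transcript Icos-001 had 3 rows, each with a dash in 1 or 2 libraries. One row held 17.7 FPKM for M2 and 0.544 for CD4, another 0.286 for CD4 alone and the last 0.218 for M1 alone. Summed over rows, Icos was at 17.7 FPKM in the M2-labelled library, 0.830 in the CD4-labelled one and 0.218 in the M1-labelled one. The order of the libraries was that of Cd28, with ratios of 21.3 for M2 over CD4 and 81.0 for M2 over M1. These sums differ in kind from the values of the other receptors, and Icos is not part of the counts.

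Tnfrsf4 lies on chromosome 4 from 155387952 to 155390721 and encodes OX40, which prolongs the survival of activated T cells and is also present on regulatory T cells. Its level was 19.9 FPKM in the M2-labelled library, 0.423 in the CD4-labelled one and 0.633 in the M1-labelled one. The ratio was 47.0 for M2 over CD4 and 31.4 for M2 over M1. Between the CD4- and M1-labelled libraries the log2 difference was -0.20, on about 33.1 and 40.6 fragments. Its coding transcript Tnfrsf4-001 held 87.2% of the level in the M2-labelled library, and the transcript Tnfrsf4-002, annotated without a coding sequence, the remaining 12.8%. In the M1-labelled library Tnfrsf4-001 held 76.5%. In the CD4-labelled one it held 43.6% and Tnfrsf4-002 56.4%, on about 14.0 and 19.1 fragments.

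Tnfrsf9, on chromosome 4 from 150288671 to 150320211, differed from the other costimulatory receptors. It encodes 4-1BB, an activation-induced receptor of T cells and NK cells that is also known on some myeloid cells. Its level was 12.9 FPKM in the M2-labelled library, 12.3 in the M1-labelled one and 1.88 in the CD4-labelled one. The M2- and M1-labelled libraries lay 0.06 apart on the log2 scale, whereas T cell markers summed to 1759 FPKM in one and 6.01 in the other. The CD4-labelled library was lower than both, with log2 differences of 2.28 for M2 against CD4 and -2.21 for CD4 against M1. The gene has 9 annotated transcripts, of which 8 had a filled row and 2 a level above 0. Tnfrsf9-202 was at 7.99 FPKM in the M2-labelled library, 7.37 in the M1-labelled one and 1.88 in the CD4-labelled one. Tnfrsf9-201 was at 4.94 and 4.95 FPKM in the M2- and M1-labelled libraries, and was listed at 0 in the CD4-labelled one. Further rows, each empty in 1 or 2 libraries, held 1.38 FPKM of Tnfrsf9-202 for CD4 and 0.394 and 0.337 FPKM of Tnfrsf9-006 for M1 and CD4, and with them the gene was at 3.59 FPKM in the CD4-labelled library and 12.7 in the M1-labelled one. By the main values the shorter transcript made up 38.2% of the level in the M2-labelled library and 40.2% in the M1-labelled one.

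These transcripts of Tnfrsf9 differ in their first exon and in 1 coding exon. The coding exon has 135 bases, or 45 codons, at chr4:150309531-150309665 on the forward strand, and is present in Tnfrsf9-202 and absent from Tnfrsf9-201. It is shown because it carries the most hydrophobic stretch of the receptor outside its start: the highest mean hydropathy over 19 residues (Kyte-Doolittle scale) was 2.76 in Tnfrsf9-202, at residues 186 to 204, and 1.07 in Tnfrsf9-201. A soluble form of 4-1BB without the membrane-spanning part is known from alternative splicing. The exon and the joins that tell the transcripts apart read as follows, where capitals mark the bases that follow the join.
Tnfrsf9-202, exon 7: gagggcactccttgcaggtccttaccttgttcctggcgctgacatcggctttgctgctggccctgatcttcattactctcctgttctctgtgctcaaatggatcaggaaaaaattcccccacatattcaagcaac
Tnfrsf9-202, join of exons 6 and 7: cagagggaggaccagGAGGGCACTCCTTGC
Tnfrsf9-202, join of exons 7 and 8: acatattcaagcaacCATTTAAGAAGACCA
Tnfrsf9-201, join of exons 6 and 7: cagagggaggaccagCATTTAAGAAGACCA

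The first exons of Tnfrsf9-201 and Tnfrsf9-202 begin 7844 bases apart. The RefSeq table of starts lists 2 starts for this gene in build GRCm38.p6, which are also 7844 bases apart. Tnfrsf9-001, which keeps the 135 bases that Tnfrsf9-201 lacks, was listed at 0 in all 3 libraries. Cufflinks divides fragments between overlapping transcripts by a model, and the values do not tell whether fragments of the first exon or of the skipped exon set the division.

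**Figure D2:**
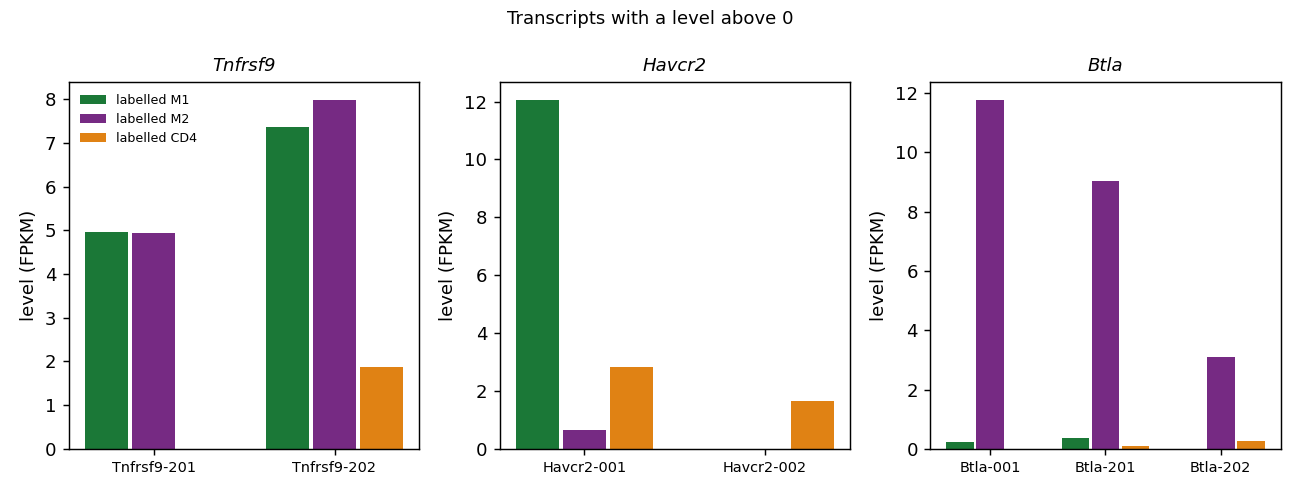
Level in FPKM (y axis, linear, from 0) of each transcript with a value above 0 (x axis) for Tnfrsf9, Havcr2 and Btla, with 1 bar for each of the libraries labelled M1, M2 and CD4. Tnfrsf9-201 has bars of 4.95 and 4.94 FPKM in the M1- and M2-labelled libraries and none in the CD4-labelled one, while Havcr2-002 has a bar of 1.66 FPKM only in the CD4-labelled one.

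**Figure D3:**
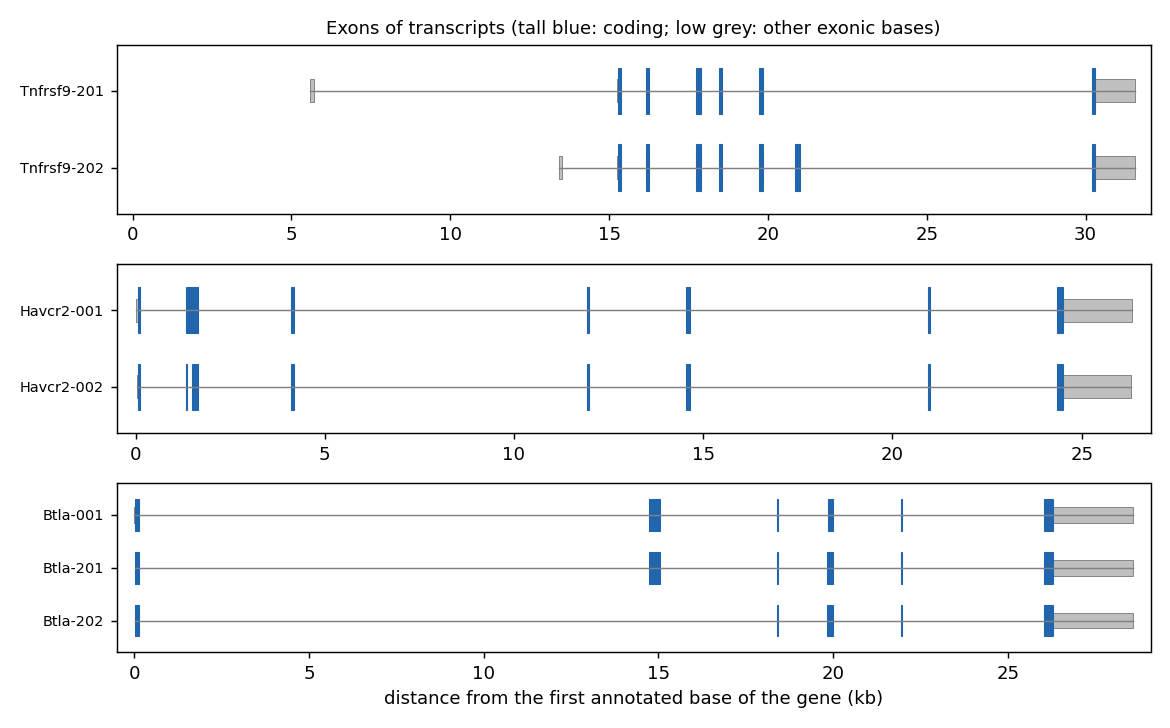
Exons of the same transcripts drawn to scale against the distance in kb from the first annotated base of each gene (x axis), 1 line per transcript, with coding bases as tall blue boxes and other exonic bases as low grey boxes. Tnfrsf9-201 lacks a coding exon of 135 bases, Havcr2-002 lacks 147 bases within its second coding exon, and Btla-202 lacks a coding exon of 321 bases.

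Among the inhibitory receptors, Pdcd1 lies on the reverse strand of chromosome 1 from 95934884 to 95949130. It encodes PD-1, which binds PD-L1 and PD-L2 and is induced by T cell activation. Pdcd1 was at 10.1 FPKM in the M2-labelled library, 0.129 in the CD4-labelled one and 0.206 in the M1-labelled one. The M2-labelled library was thus 78.4 times as high as the CD4-labelled one and 49.2 times as high as the M1-labelled one. Between the low libraries the log2 difference was -0.09, on about 18.3 and 24.3 fragments. The M2-labelled library also had 2 further rows under the same identifier, empty in the others, at 0.321 and 0.397 FPKM.

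Tigit, on the reverse strand of chromosome 16 from 43648974 to 43664297, encodes an inhibitory receptor that competes with the activating receptor CD226 for CD155. It was at 10.3 FPKM in the M2-labelled library and 0.0602 in the M1-labelled one, and was listed at 0 in the CD4-labelled one. The level in the M1-labelled library is worth about 3.6 fragments, and 3 fragments would give 0.0424 FPKM in the CD4-labelled library. Tigit was therefore the receptor with the lowest level outside the M2-labelled library. The gene encoding its competitor, Cd226, was at 13.3, 0.173 and 0.646 FPKM in the order M2, CD4, M1. Over all rows Cd226 was at 22.2, 0.173 and 4.26 FPKM, so that its level in the M1-labelled library depends on the rows read.

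Btla, on the forward strand of chromosome 16 from 45224428 to 45253008, encodes a receptor for HVEM that is carried by T cells, B cells and some dendritic cells. Its level was 23.9 FPKM in the M2-labelled library, 0.388 in the CD4-labelled one and 0.602 in the M1-labelled one. The ratio was 61.6 for M2 over CD4 and 39.7 for M2 over M1. The B cell marker Ms4a1 moved with it, at 13.5 FPKM in the M2-labelled library, 0.123 in the CD4-labelled one and 0.0250 in the M1-labelled one. All but 1 of the 5 B cell markers were highest in the M2-labelled library, and Cd79b was listed at 0 there. The part of B cells in the level of Btla was not tested.

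All 3 transcripts of Btla had a level above 0 in the M2-labelled library, at 11.8 FPKM for Btla-001, 9.03 for Btla-201 and 3.09 for Btla-202. Btla-001 and Btla-201 differ by 1 codon, at chr16:45244266-45244268, so that their division is uncertain. Btla-202 lacks the coding exon of 321 bases at chr16:45239157-45239477 and encodes 200 residues, whereas Btla-201 encodes 306. It made up 12.9% of the level in the M2-labelled library and was listed at 0 in the M1-labelled one. In the CD4-labelled library it made up 71.2% of a level of 0.388 FPKM, on about 59.2 fragments. The joins after exon 1 tell these transcripts apart, where capitals again mark the bases after the join.
Btla-201, join of exons 1 and 2: ctactaagaggaatgATGAAGAGTGTCCAG
Btla-202, join of exons 1 and 2: ctactaagaggaatgCAGAAAGGACTCAAA

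Lag3, on the reverse strand of chromosome 6 from 124854379 to 124861723, encodes a relative of CD4 that binds MHC class II. It was at 5.58 FPKM in the M2-labelled library, 6.33 in the CD4-labelled one and 1.25 in the M1-labelled one. The M2- and CD4-labelled libraries differed by -0.16 on the log2 scale, and both were above the M1-labelled one, by 1.55 and 1.70. In the rows kept, this order was not that of any T cell marker on the list, all of which were highest in the M2-labelled library. Cd4, the neighbour of Lag3 in sequence family, was the T cell marker with the highest level in the CD4-labelled library, at 15.2 FPKM, against 166 in the M2-labelled one and 0.870 in the M1-labelled one. In the M2-labelled library there were 3 further rows under the Lag3 identifier with 1.17, 1.38 and 1.31 FPKM, empty in the other libraries. Summed over all rows, Lag3 was at 9.44 FPKM in the M2-labelled library, and the difference to the CD4-labelled one changed sign, to 0.51. Lag3 was then highest in the M2-labelled library, as the T cell markers were, but its ratio over the CD4-labelled one was only 1.49. That is below the 2-fold limit, which all 11 T cell markers passed over all rows.

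Havcr2, on the forward strand of chromosome 11 from 46268437 to 46294757, gave the opposite order to Cd28. It encodes TIM-3, a receptor of exhausted and type 1 T cells that is also present on macrophages and dendritic cells. Havcr2 was at 12.1 FPKM in the M1-labelled library, 4.51 in the CD4-labelled one and 0.650 in the M2-labelled one. The M1-labelled library was 18.6 times as high as the M2-labelled one and 2.68 times as high as the CD4-labelled one, with log2 differences of -2.99 for M2 against M1 and -1.25 for CD4 against M1. The CD4-labelled library was in turn 6.93 times as high as the M2-labelled one. The levels are worth about 2015, 878 and 106 fragments. In the order M1, CD4, M2, the macrophage marker Csf1r was at 279, 519 and 15.3 FPKM, and of the 6 dendritic cell markers, 2 were highest in the M1-labelled library, Cd209a at 23.7, 0.653 and 3.53 FPKM and Zbtb46 at 1.42, 1.21 and 0.628. The other 4 were highest in the M2-labelled library, where Havcr2 was lowest. Of these, Ccr7 was at 6.44, 0.464 and 122 FPKM, whereas Flt3, Clec9a and Xcr1 reached only 2.19, 1.09 and 0.533 FPKM in the M2-labelled library. Havcr2 shared the lowest place in the M2-labelled library with all 10 macrophage markers, while 9 of these were highest in the CD4-labelled library and Havcr2 in the M1-labelled one. The part of dendritic cells in this difference was not tested.

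Havcr2 has 2 annotated transcripts, and the CD4-labelled library differed from the others in their use. Havcr2-001 was at 12.1 FPKM in the M1-labelled library, 2.84 in the CD4-labelled one and 0.650 in the M2-labelled one. Havcr2-002 was at 1.66 FPKM in the CD4-labelled library, which is 36.9% of the gene, and was listed at 0 in both others. A second row of Havcr2-002, empty in the M2- and CD4-labelled libraries, held 3.47 FPKM for the M1-labelled library, so that the difference in transcript use depends on which row is read. Havcr2-002 lacks 147 bases, or 49 codons, at chr11:46269787-46269933, within the exon that follows the first coding exon. These bases and the join made by their loss are shown because they are what separates the transcripts, with capitals for the bases after the join.
Havcr2-001, bases absent from Havcr2-002: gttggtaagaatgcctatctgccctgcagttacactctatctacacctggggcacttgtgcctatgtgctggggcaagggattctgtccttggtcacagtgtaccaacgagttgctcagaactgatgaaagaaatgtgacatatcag
Havcr2-002, join of exons 2 and 3: gcttatgtgtttgagAAATCCAGCAGATAC
The reading frame is kept, and the encoded proteins have 281 and 232 residues. The most hydrophobic stretch was the same in both, with a mean hydropathy of 2.44.

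The receptors of low level in the CD4- and M1-labelled libraries were compared with T cell markers, as a share of the level in the M2-labelled library. Over the 11 T cell markers the median share was 0.121% in the CD4-labelled library and 0.133% in the M1-labelled one. Over the 8 receptors the median was 1.91% and 2.85%. In the M1-labelled library all 8 receptors, and in the CD4-labelled one 7 of 8, were above the median of the T cell markers. The part of all genes above these medians was not counted. Other lists had medians above them too, so that this place is not particular to the receptors. In the order CD4, M1, they were 1.41% and 0.564% for other costimulatory and inhibitory receptors, and 1.26% and 0.412% for regulatory T cell markers. For CD8 and NK cell markers they were 1.48% and 2.56%, and for B cell markers 0.495% and 0.335%. A share also depends on the level in the M2-labelled library. That level was 56.7 to 434 FPKM for the T cell markers but 0.650 to 47.8 for the receptors. In the CD4-labelled library, Pdcd1 at 0.129 FPKM and Cd3e at 0.141 had shares of 1.28% and 0.112%. A larger share is therefore not a higher level. Cd28 was at 1.69% in the CD4-labelled library and 0.373% in the M1-labelled one, Pdcd1 at 1.28% and 2.03%, Btla at 1.62% and 2.52%, and Tnfrsf4 at 2.13% and 3.18%. Tigit was the exception in the CD4-labelled library, where it was listed at 0. In the M1-labelled library it was at 0.583%, on about 3.6 fragments. Some T cell markers were also above their list: Cd4 was at 9.12% in the CD4-labelled library and Cd2 at 3.12% in the M1-labelled one. Only Havcr2, Tnfrsf9 and Lag3 exceeded every T cell marker in the CD4-labelled library, at 693%, 14.5% and 113%, and in the M1-labelled library these 3 and Tnfrsf4 did. Over all rows the medians were 0.133% and 0.205% for the T cell markers and 1.86% and 2.63% for the receptors, and Havcr2, Tnfrsf9 and Lag3 alone exceeded every T cell marker in the M1-labelled library. Within the M2-labelled library, Cd28 was at 0.299 of the mean of the T cell markers, Btla at 0.149, Tnfrsf4 at 0.124, and Tigit and Pdcd1 at 0.0646 and 0.0633. These ratios within 1 library do not change with the scaling between libraries.

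**Figure D4:**
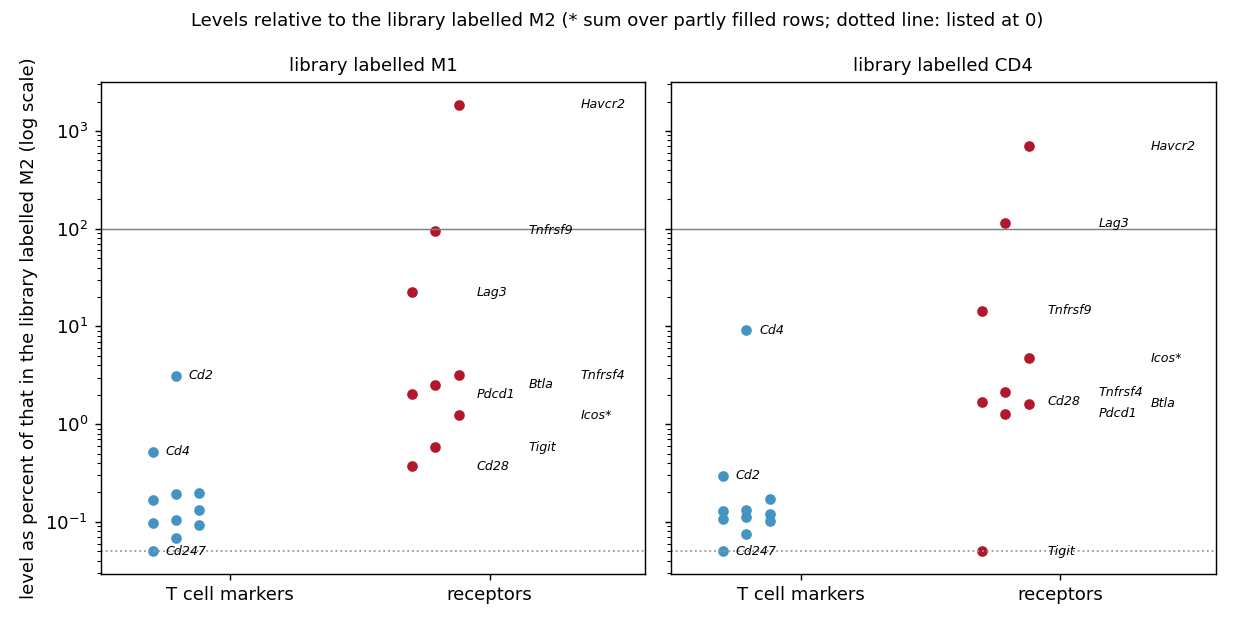
Level of T cell markers (blue) and of the receptors (red) in the libraries labelled M1 (left) and CD4 (right) as a percent of the level in the M2-labelled library (y axis, log scale), 1 point per gene; the solid line is 100%, the dotted line holds genes listed at 0, and Icos* is a sum over partly filled rows. Most T cell markers lie near the medians of 0.133% and 0.121%, most receptors between 0.373% and 3.18%, and Havcr2 at 1856% and 693%.

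Other receptors of the same kind were examined from a list of 18 genes. In the M2-labelled library, 12 of 18 were at least 2-fold higher than in the CD4-labelled one (5.85% of all genes and 17.3% of those with 1 FPKM in either library) and 2 lower (5.17% and 15.3%). Against the M1-labelled one 12 were higher (5.73% and 17.0%) and 2 lower (4.90% and 14.5%). Over all rows 13 were higher and 2 lower in each comparison, although Tnfrsf14, which encodes HVEM, then passed in neither. Ctla4, the inhibitory relative of Cd28, was at 13.1 FPKM in the M2-labelled library, 0.0393 in the CD4-labelled one and 0.0538 in the M1-labelled one. Cd27, a costimulatory TNF receptor of resting T cells, had 78.8 FPKM for M2, 0.356 for CD4 and 0.145 for M1, and Cd40lg, through which T cells activate B cells and antigen presenting cells, at 19.6, 0.0516 and 0.0692. Tnfrsf18, which encodes GITR, was at 5.81 FPKM in the M2-labelled library and 0.198 in the CD4-labelled one, and was listed at 0 in the M1-labelled one. The remaining 6 genes did not follow this order. Lair1, an inhibitory receptor for collagen, was at 6.75 FPKM in the M2-labelled library, 32.8 in the CD4-labelled one and 13.9 in the M1-labelled one. 4632428N05Rik, which encodes VISTA, was at 39.5, 82.2 and 66.1 FPKM. Ceacam1, a proposed ligand of TIM-3, was at 3.44, 4.41 and 24.8 FPKM, so that like Havcr2 it was highest in the M1-labelled library. Cd244, a receptor of the SLAM family, was also highest there, at 6.51 FPKM against 0.525 in the CD4-labelled one and 1.03 in the M2-labelled one. In the rows kept, Cd160 was at 0 in all 3 libraries and Havcr1, the relative of Havcr2, at 0 in the M2-labelled one, but over all rows both were highest there, at 2.75 and 1.78 FPKM.

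**Figure D5:**
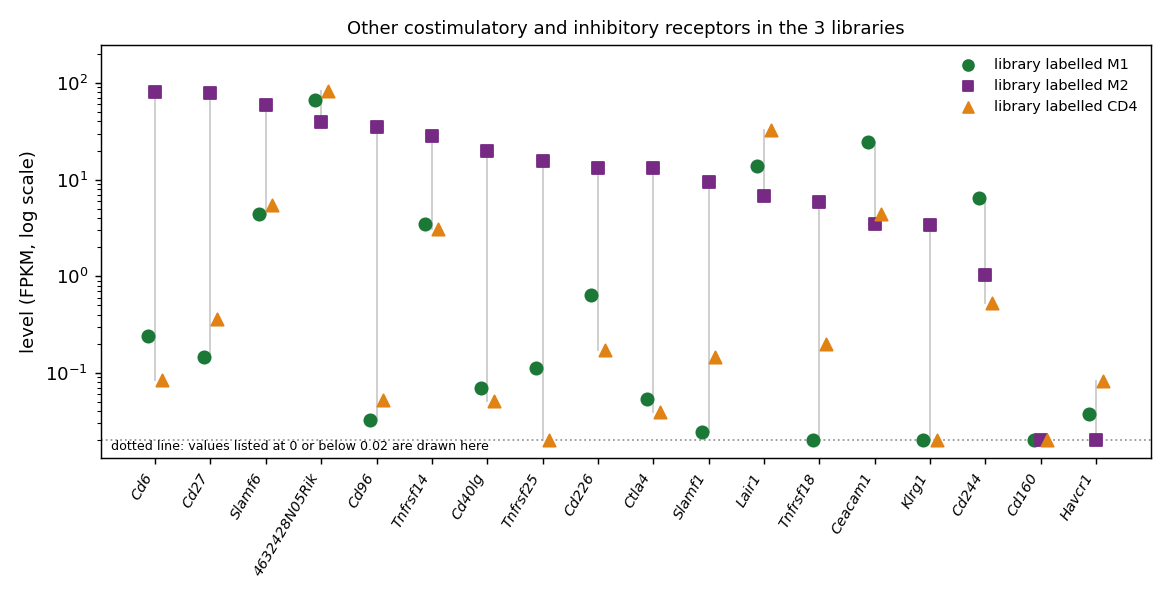
Level of 18 other costimulatory and inhibitory receptor genes (x axis, ordered by the M2-labelled library) in FPKM on a log scale (y axis) in the libraries labelled M1 (circles), M2 (squares) and CD4 (triangles), with values at 0 or below 0.02 on the dotted line. Cd6 and Cd27 lead at 80.1 and 78.8 FPKM in the M2-labelled library, while Lair1, Ceacam1, Cd244 and 4632428N05Rik are higher in 1 or both of the other libraries.

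The ligands of these receptors were also examined. Of 12 ligand genes, 6 were at least 2-fold lower in the M2-labelled library than in the M1-labelled one, among them Cd86 at 3.52 against 25.2 FPKM. Of all genes 4.90% were, and 14.5% of those with 1 FPKM in either library. Only Tnfrsf14 was at least 2-fold higher (5.73% and 17.0%), at 28.6 against 3.47 FPKM. Against the CD4-labelled library 3 were lower (5.17% and 15.3%) and 2 higher (5.85% and 17.3%). Over all rows 5 were lower and 0 higher than in the M1-labelled library, with Tnfrsf14 at 75.5 against 48.1 FPKM and at 51.0 in the CD4-labelled one. Against the CD4-labelled library 4 were then lower and 1 higher. Tnfsf4, the ligand of OX40, was below 1 FPKM in all 3 libraries.

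The genes with the most similar levels to each receptor were found by the Euclidean distance in log2(FPKM + 1) over the 3 libraries, among 11009 coding genes outside the lists. With 3 values per gene, a small distance says only that the levels are alike. Nearest to Pdcd1 were Rab11fip4 at a distance of 0.05 and Tgfbr3, a coreceptor of TGF-β, at 0.12. Jakmip1 at 0.07 and Gpr174 at 0.08 were nearest to Tigit, and Faah at 0.32 and Icam2 at 0.34 to Btla. Cd28 had no close neighbour, with Dtx1 and Il2rb, a chain of the receptors for IL-2 and IL-15, each at 0.55. Tnfrsf4 was nearest to Itm2a at 0.30 and Icam2 at 0.35. Cish, a feedback inhibitor of cytokine signalling, was nearest to Tnfrsf9 at 0.21, with levels of 12.4, 11.8 and 2.25 FPKM in the order M1, M2, CD4, followed by Bckdha at 0.36. Havcr2 was nearest to Gfra2 at 0.23 and to Batf3, a transcription factor of a dendritic cell subset, at 0.28, and Batf3 was at 11.0 FPKM in the M1-labelled library, 0.404 in the M2-labelled one and 4.21 in the CD4-labelled one. Lag3 was nearest to Ndufaf3 at 0.20 and Ncoa1 at 0.22.

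The bases upstream of the start are shown for Tigit, which was highest in the M2-labelled library, and Havcr2, which was lowest there. RefSeq starts in build GRCm38.p6 were found for 6 of the 9 receptors. The 250 bases before each start were searched on both strands for 4 motifs: AGGAAGT, a core bound by factors of the ETS family including PU.1, GGAAA for NFAT, TGANTCA for AP-1 and TGTGGT for Runx, and matches are in capitals. AGGAAGT had 2 matches for Havcr2, 1 for Btla and 0 for Tigit, Pdcd1, Tnfrsf4 and both starts of Tnfrsf9, where 7.69% of 32851 such windows of all genes held it. GGAAA had 2 matches each for Tigit, Pdcd1 and the upstream start of Tnfrsf9, 3 for its downstream start, 1 for Tnfrsf4 and 0 for Btla and Havcr2, where 55.6% of all windows held it. TGANTCA, held by 6.75% of all windows, had 1 match for Havcr2 and 1 before the downstream start of Tnfrsf9, and TGTGGT, held by 14.0%, had 1 match each for Havcr2, Tigit and Btla. A match of letters is not a bound site, and no binding was measured. The windows are chr16:43664185-43664434 on the reverse strand for Tigit and chr11:46454681-46454930 on the forward strand for Havcr2.
Tigit: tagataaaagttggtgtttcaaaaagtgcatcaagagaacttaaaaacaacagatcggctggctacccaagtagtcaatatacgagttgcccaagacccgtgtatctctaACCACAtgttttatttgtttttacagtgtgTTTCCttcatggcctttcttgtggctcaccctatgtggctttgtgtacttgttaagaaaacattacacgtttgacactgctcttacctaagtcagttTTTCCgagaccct
Havcr2: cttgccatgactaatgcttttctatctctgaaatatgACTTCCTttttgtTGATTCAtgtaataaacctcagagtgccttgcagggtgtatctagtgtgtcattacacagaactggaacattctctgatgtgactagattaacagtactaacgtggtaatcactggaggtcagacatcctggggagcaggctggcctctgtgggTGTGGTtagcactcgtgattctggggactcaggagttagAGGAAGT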

How the data were processed

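RNA of 3 sorted populations was sequenced as paired reads, with 1 library each. The authors aligned trimmed reads to mouse genome MM9 with TopHat and Bowtie and estimated transcript levels with Cufflinks guided by Ensembl, while the submitters' processing notes name Cuffdiff. The authors deposited 1 column of FPKM per library, and columns were assigned by their headings. The sources used here do not state how assemblies were joined into 135070 rows. Many rows hold a dash in some columns and were not read as 0 in the main values.

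Identifiers were joined to GENCODE on NCBIM37 (Ensembl release 65). For each identifier the first row with values in all 3 columns was kept, and transcripts were summed per gene. A sum over all rows is an alternative. The log2 difference used FPKM + 1, and 2-fold was the limit. To estimate depth, the product of FPKM and length that occurred most often among low values of single-transcript coding genes was taken as 1 fragment. A fragment number covers counting error only. Calculations were tested on simulated data. The receptors and all gene lists were chosen with earlier results of these data known. The genes named are the receptors, members of the lists and the 2 coding genes nearest to each receptor. Of the 16 signalling genes listed, 14 had a value. Some items are not reported here. TruSeq libraries of this kit are not stranded. Python 3.11.15, numpy 2.4.6 and pandas 2.3.3 were used.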

Additional observations from a re-analysis of the deposited data

How the results depend on the processing

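With 1 library per group no replicate could be left out. No paired analysis was possible because the groups hold a single library. The number of receptors at least 2-fold different was 7 for M2 against CD4, 7 for M2 against M1 and 3 for CD4 against M1. After each library was set to a sum of 1000000 these numbers were 1, 1 and 0, and the median log2 differences fell from 3.40 to 0.50 for M2 against CD4 and from 3.31 to 0.49 for M2 against M1. This follows from the construction, since the smallest column total was 25111600 FPKM, so that the added 1 weighs more against the rescaled levels. In the other settings (all rows summed, coding transcripts only, a pseudocount of 0.1, at least 1 FPKM in one library, scaling by the median ratio, and the highest row per identifier, an alternative that was chosen once the data had been seen) the counts stayed within 1.5 times. Of 163 single differences recomputed, 15 fell below the 2-fold limit, all after rescaling to a total, and 1 passed it, Cd28 for CD4 against M1 with a pseudocount of 0.1, at 1.71. The sign changed in 2, both for Lag3 in M2 against CD4.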

Other observations

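Genes of the signalling proteins downstream of these receptors were listed for 16 genes, of which 14 had a row filled in all libraries. In the M2-labelled library, 6 were at least 2-fold higher than in the CD4-labelled one (5.85% of all genes and 17.3% of those with 1 FPKM in either library) and 2 lower (5.17% and 15.3%). Against the M1-labelled one 4 were higher (5.73% and 17.0%) and 0 lower (4.90% and 14.5%), and 6 were higher over all rows. Prkcq, the protein kinase C that acts with CD28, was at 73.9 FPKM in the M2-labelled library, 0.246 in the CD4-labelled one and 0.145 in the M1-labelled one. The TNF receptor adaptor Traf1, which binds 4-1BB, was at 11.9, 1.29 and 2.24 FPKM. Ptpn6, which encodes the phosphatase SHP-1, was at 81.8, 129 and 130 FPKM, and Ptpn11, which encodes SHP-2 and is recruited by PD-1, differed by 0.20 on the log2 scale between M2 and CD4. The 2 lower genes were Inpp5d, a lipid phosphatase, at 28.8 against 66.5 FPKM in the CD4-labelled one, and Grb2, an adaptor, at 29.6 against 60.8. These are single libraries with no replicate check.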
